A study of Mus musculus with 12 samples.

Results

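Peaks of open chromatin assigned to microRNA genes were examined in an ATAC-seq data set of mouse hepatocyte nuclei. A peak belonged to the set if the authors' annotation named as its nearest gene a gene whose symbol is Mir followed by a number, and host transcripts ending in hg (13 peaks) were left out. The rule gave 1288 of the 52530 peaks in the table, which were assigned to 426 microRNA genes. ATAC-seq marks accessible DNA, because a transposase cuts and tags it, and the number of reads in a peak is a measure of how open that site was. Nuclei were pulled on beads from livers of 6 female HEP-INTACT mice, in which the nuclei of hepatocytes carry a genetic tag. Neither the promoter behind the tag nor the age of the animals was stated in the sources. Fasted mice (n = 3) went without food for 16 h beginning at ZT12, and fed mice (n = 3) had food at will and were taken at a matching hour. From each animal 1 library was made from frozen and 1 from fresh liver, so that there were 12 libraries in 4 groups of 3. Mice are named below by feeding state and by the letter, A to C, of their columns in the table.

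MicroRNAs are short RNAs that pair with target mRNAs through a seed near their 5′ end and lower the output of those mRNAs. Their primary transcripts are cut to a hairpin by Drosha and Dgcr8 in the nucleus, exported by Xpo5, trimmed by Dicer1 and loaded on Argonaute proteins. Many hairpins lie in introns of protein-coding genes and are made from the host transcript. The annotated start of a microRNA gene is the start of its hairpin, which can lie far from the promoter of the primary transcript. A peak is listed under the nearest annotated start, which need not belong to the gene that it regulates. In the liver, microRNAs such as miR-122, miR-33, miR-148a and miR-34a act on cholesterol, lipid and glucose metabolism.

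The mature microRNAs whose genes carry the results below are shown with the seed, bases 2 to 8, in capitals, so that family members can be recognised by the seed they share. Sequences are from RefSeq on GRCm38.p6, the assembly of the mm10 build used by the authors. Of the 426 genes, 395 had an entry in that table.
miR-33-5p: gUGCAUUGuaguugcauugca
miR-148a-3p: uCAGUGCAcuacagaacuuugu
miR-152-3p: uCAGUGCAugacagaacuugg
miR-21a-5p: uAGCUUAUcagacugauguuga
miR-34a-5p: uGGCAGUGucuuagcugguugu
miR-802-5p: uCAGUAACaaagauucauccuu
miR-103-3p: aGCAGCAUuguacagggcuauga
miR-107-3p: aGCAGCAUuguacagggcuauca
miR-101a-3p: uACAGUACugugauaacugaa
miR-101b-3p: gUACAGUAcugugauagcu
miR-26a-5p: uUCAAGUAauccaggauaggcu
miR-26b-5p: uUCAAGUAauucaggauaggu
miR-29b-3p: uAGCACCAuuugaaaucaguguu
miR-29c-3p: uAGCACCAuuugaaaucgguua
miR-30a-5p: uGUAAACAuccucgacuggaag
miR-30c-5p: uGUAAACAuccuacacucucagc
miR-10b-5p: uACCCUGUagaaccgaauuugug
miR-214-3p: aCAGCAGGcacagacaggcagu
miR-221-3p: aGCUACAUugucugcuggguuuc
miR-222-3p: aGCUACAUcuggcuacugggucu
miR-15a-5p: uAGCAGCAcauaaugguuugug
miR-212-3p: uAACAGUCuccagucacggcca
miR-6392-3p: gACGCAGGuuugccggguccucu
Mature miR-148a-3p and miR-152-3p share a seed, as do miR-103-3p and miR-107-3p, miR-26a-5p and miR-26b-5p, miR-29b-3p and miR-29c-3p, miR-30a-5p and miR-30c-5p, and miR-221-3p and miR-222-3p. In the RefSeq entries miR-101b-3p has 1 extra base before the run that opens miR-101a-3p, so their seeds as counted here differ in frame. Other microRNAs, Mir122 among them, are named without sequence.

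Raw counts were not recovered, so depth is an estimate: every value of a library was a whole multiple of 1 step, and a step was taken as 1 read, which could not be checked. On that reading the libraries held 3.69 to 14.5 M reads in peaks (M, a count of 1000 times 1000). The median microRNA peak would then have 43 to 195 reads per library, a counting error of 15.2% to 7.16%. MicroRNA peaks took 2.08% to 2.26% of the normalized reads. Hepatocyte markers had a peak within 1 kb of the gene start for 7 of 8 genes (not Ttr), with a summed level of 1671 to 2621 normalized reads in fasted and 1530 to 2043 in fed libraries. No endothelial (0 of 6), macrophage (0 of 5) or lymphocyte (0 of 4) marker had such a peak, while 1 of 5 stellate cell, 1 of 4 bile duct and 1 of 3 erythroid markers had one. For Reln, the stellate cell marker, the level was 77.6 to 125 normalized reads in fasted and 51.2 to 134 in fed libraries. Sox9, the bile duct marker, had 86.2 to 119 in fasted and 65.1 to 137 in fed libraries. Klf1, the erythroid marker, had 59.7 to 80.2 in fasted and 34.5 to 63.1 in fed libraries, and it was the only one of these 3 called in fasting, as higher. The part of other cells in the results was not tested.

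MicroRNA peaks lay far from the annotated starts. The median distance was 17.9 kb, against 5.84 kb over all peaks, and the largest was 695 kb. Introns held 622 peaks (48.3%), intergenic DNA 436 (33.9%), transcript ends 86 (6.68%) and promoters 83 (6.44%). The promoter class covers sites at an annotated start. For a microRNA this start is the hairpin and need not be the promoter of its primary transcript. Among the other peaks of the table, 28.4% were in promoters. By RefSeq gene bodies, 777 microRNA peaks (60.3%) lay inside a protein-coding gene, and for 682 of them the microRNA lay inside the same gene. The host genes with the most of these peaks were Pde4d, a cAMP phosphodiesterase, with 29 peaks, Itpr1, a calcium channel of the endoplasmic reticulum, with 20, and Zmiz1 with 17. Of the 426 microRNA genes 170 had 1 peak and 19 had 10 or more, with at most 20 for Mir7661. The median level was 103 normalized reads, against 114 over all peaks. Peaks that overlap another peak of the table, and so can share reads with it, made up 153 of the 1288.

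Fasting changed microRNA peaks in both directions, more often downward. On the mean of both preparations, with 3 fasted against 3 fed mice, 201 peaks (15.6%) were higher and 324 (25.2%) were lower in fasted liver. Over all 52530 peaks together, 16.5% were higher and 18.1% were lower. The ± after a log2 difference is its standard error. These calls are from limma on log2(value + 1), two-sided, with Benjamini-Hochberg adjustment over all 52530 peaks and an adjusted p under 0.05. The share of higher peaks was near that over all peaks, and the share of lower peaks was above it. The mix of sites differed: 6.44% of microRNA peaks and 28.4% of the others were in promoters. In promoters 13.3% of microRNA peaks and 3.75% of the others were lower. In introns 29.9% were lower, against 24.1% of the others, and in intergenic DNA 18.8%, against 23.6%. The part of this mix in the lower share was not tested. The median log2 difference was -0.04 for microRNA peaks and 0.05 over all peaks. With the lowest 25% of peaks left out the microRNA median turned to 0.02, against 0.07 over all peaks. When libraries were scaled to the median of peaks near gene starts, the counts were 129 higher and 424 lower, and the median over all peaks was then -0.08. Changes larger than 1 on the log2 scale were called for 25 higher (1.94%) and 115 lower microRNA peaks (8.93%), against 806 (1.53%) and 2953 (5.62%) over all peaks. All 6 fasted libraries were above all 6 fed libraries at 86 microRNA peaks (6.68%, against 5.16% over all peaks). All 6 were below at 153 (11.9%, against 7.79%). A lower value in such a bulk sample can mean that fewer nuclei were open at the site or that each was less open, and these cannot be told apart.

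By distance from the annotated start, lower calls were more frequent among microRNA peaks than among other peaks within 10 kb, and less frequent beyond. That start is a hairpin for microRNA peaks and the start of the nearest gene for the others. The other peaks include 14552 in promoters, of which 3.75% were lower, so the sets differ in kind of site. Within 1 kb of the annotated start 21 of 135 microRNA peaks were higher (15.6%) and 25 were lower (18.5%), while among the other 18399 peaks within 1 kb of a gene start 19.7% were higher and 4.49% were lower. Between 1 and 10 kb 49 of 359 microRNA peaks were higher (13.6%) and 106 were lower (29.5%), against 14.7% and 22.1% of the other peaks. From 10 to 50 kb the shares were 16.0% higher and 24.4% lower for microRNA peaks, against 14.3% and 26.1% for the others. Beyond 50 kb the shares were 17.3% higher and 24.1% lower for microRNA peaks, against 15.9% and 29.0% for the others. The microRNA peaks within 1 kb had a median level of 132 normalized reads, against 167 for the others. These shares describe the peaks and were given no test, since peaks of a gene and of neighbouring genes are not independent.

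**Figure D1:**
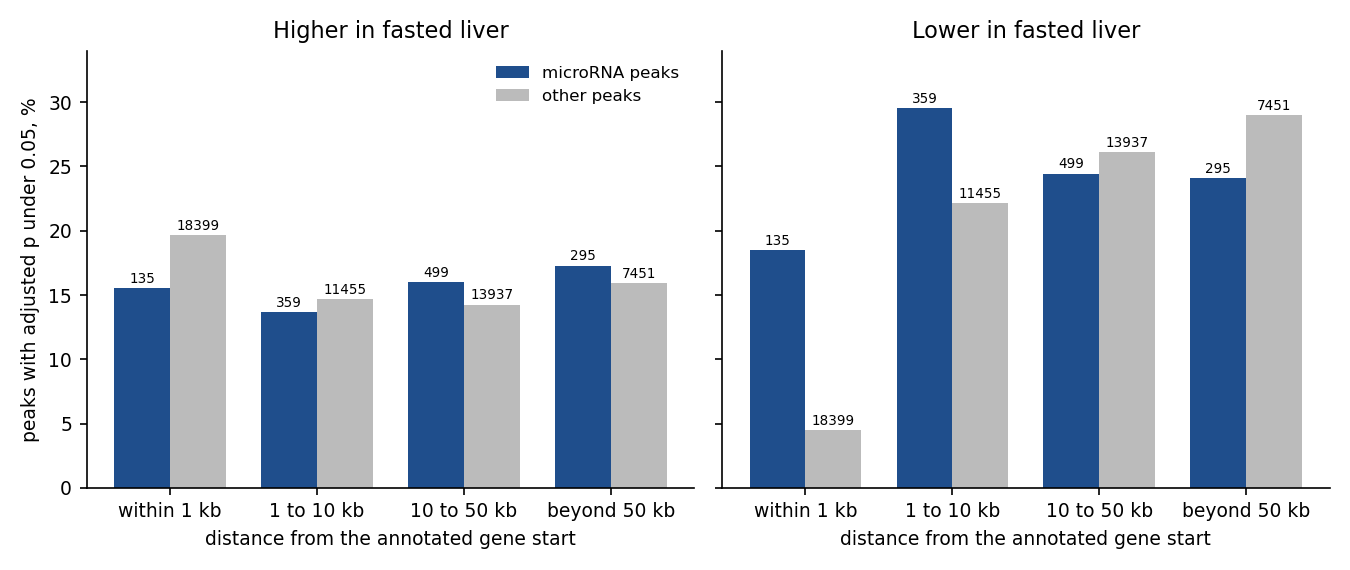
Share of peaks called higher (left) or lower (right) in fasted liver, in percent, by distance from the annotated gene start, for microRNA peaks and for all other peaks, with the number of peaks above each bar. Within 1 kb 18.5% of microRNA peaks were lower, against 4.49% of the other peaks. The start is a hairpin for microRNA peaks and that of the nearest gene for the others.

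The counts in this paragraph were given no test and stand against 16.5% higher and 18.1% lower over all peaks. Among the other intron peaks 14.3% were higher and 24.1% lower, and among the other intergenic peaks 16.8% and 23.6%. Peaks in the gene that also holds the microRNA were 107 higher and 184 lower of 682, with a median log2 difference of -0.06. Outside protein-coding genes there were 511 peaks, 84 of them higher and 97 lower, and the median was 0.03. The remaining 95 lay in a protein-coding gene that was not found to hold the microRNA, where 10 rose and 43 fell, and the median was -0.30. The microRNA was located on the chromosome of the peak for 1262 of the 1288 peaks, so these 95 can include some that could not be checked. Genes with a number below 1000, which hold most of the long-studied microRNAs, had 420 peaks, with 79 higher and 96 lower. Genes numbered 1000 or above had 868 peaks, with 122 higher and 228 lower. In CpG islands 10 of 39 microRNA peaks were higher and 1 was lower, against 543 and 60 of 2214 over all peaks. In all, 254 genes had a called peak: 67 had higher peaks only, 143 lower peaks only, and 44 had both. No such gene counts were made over all genes.

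At the hairpins themselves 27 peaks overlapped a microRNA hairpin, and 8 of them were higher and 6 lower in fasted liver, against 16.5% and 18.1% over all peaks. The hairpin of Mir21a, a growth-linked microRNA whose gene lies at the end of Vmp1, was covered by a peak at chr11:86584069-86584269 with 25.5 to 34.9 normalized reads (median 30.8) in fasted libraries and 53.9 to 105 (median 70.5) in fed libraries. All fasted libraries were below all fed libraries. The log2 difference was -1.23 ± 0.19 (adjusted p = 0.00136). The hairpin peak of Mir1936, inside Itpk1, had 13.4 to 49.9 normalized reads (median 34.6) in fasted and 53.4 to 109 (median 93.9) in fed libraries, with no overlap. Its log2 difference was -1.43 ± 0.25 (adjusted p = 0.00276). The other lower ones were Mir6392 (log2 difference -1.04), Mir7048 (log2 difference -0.80), Mir7k (log2 difference -0.74) and Mir135a-1 (log2 difference -0.46). The 8 higher ones moved less, between 0.26 at Mir5625 and 0.46 at Mir8114. Scaling to peaks near gene starts ended the calls at Mir8114, Mir5627, Mir688, Mir5625, Mir3105, Mir293 and Mir7071, with log2 differences of 0.13 to 0.33, so that only Mir1956 of the 8 kept its call there. Among the hairpin peaks the call was also lost without single mice: at Mir135a-1 without fed A, fed B or fasted A (adjusted p = 0.0505 to 0.0966), at Mir3105 without fed A, fed B, fed C, fasted A or fasted C (adjusted p = 0.069 to 0.124), and at Mir8114 without fed A, fed B, fed C, fasted A or fasted B (adjusted p = 0.0589 to 0.106). At Mir5627 it was lost without fed A, fed B or fasted A (adjusted p = 0.0506 to 0.0684), at Mir688 without fed A, fed B or fasted A (adjusted p = 0.0561 to 0.0623) and at Mir293 without fed A, fed B, fed C, fasted A or fasted B (adjusted p = 0.0591 to 0.135). At Mir5625 it was lost without fed A, fed B, fed C, fasted A, fasted B or fasted C (adjusted p = 0.0617 to 0.0947) and at Mir7071 without fed A, fed B, fasted A or fasted C (adjusted p = 0.078 to 0.11).

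Mir33, an intronic microRNA of Srebf2 that represses the cholesterol exporter Abca1, had 6 peaks, of which 2 were higher and 1 lower. Srebf2 encodes the transcription factor that drives cholesterol synthesis. The lower peak, 1.86 kb from the start of the hairpin in the same gene at chr15:82199882-82200082, had 11.1 to 84.2 normalized reads (median 47.1) in fasted libraries and 104 to 206 (median 142) in fed libraries. All fasted libraries were below all fed ones, and the log2 difference was -2.02 ± 0.48 (adjusted p = 0.0107). This call was lost without fed B (adjusted p = 0.0516). About 14 kb upstream, still inside Srebf2, the peak at chr15:82183732-82183932 had 251 to 307 normalized reads (median 274) in fasted and 156 to 222 (median 189.6) in fed libraries. Its log2 difference was 0.56 ± 0.09 (adjusted p = 0.00125). A second peak there, at chr15:82184332-82184532, had a log2 difference of 0.79 ± 0.14 (adjusted p = 0.00251). Peaks of one microRNA gene thus moved in opposite directions inside one host gene. The promoter peak of Srebf2 itself had 281 to 411 normalized reads (median 315) in fasted and 274 to 436 (median 363) in fed libraries and was not called (log2 difference -0.11 ± 0.06, adjusted p = 0.184).

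**Figure D2:**
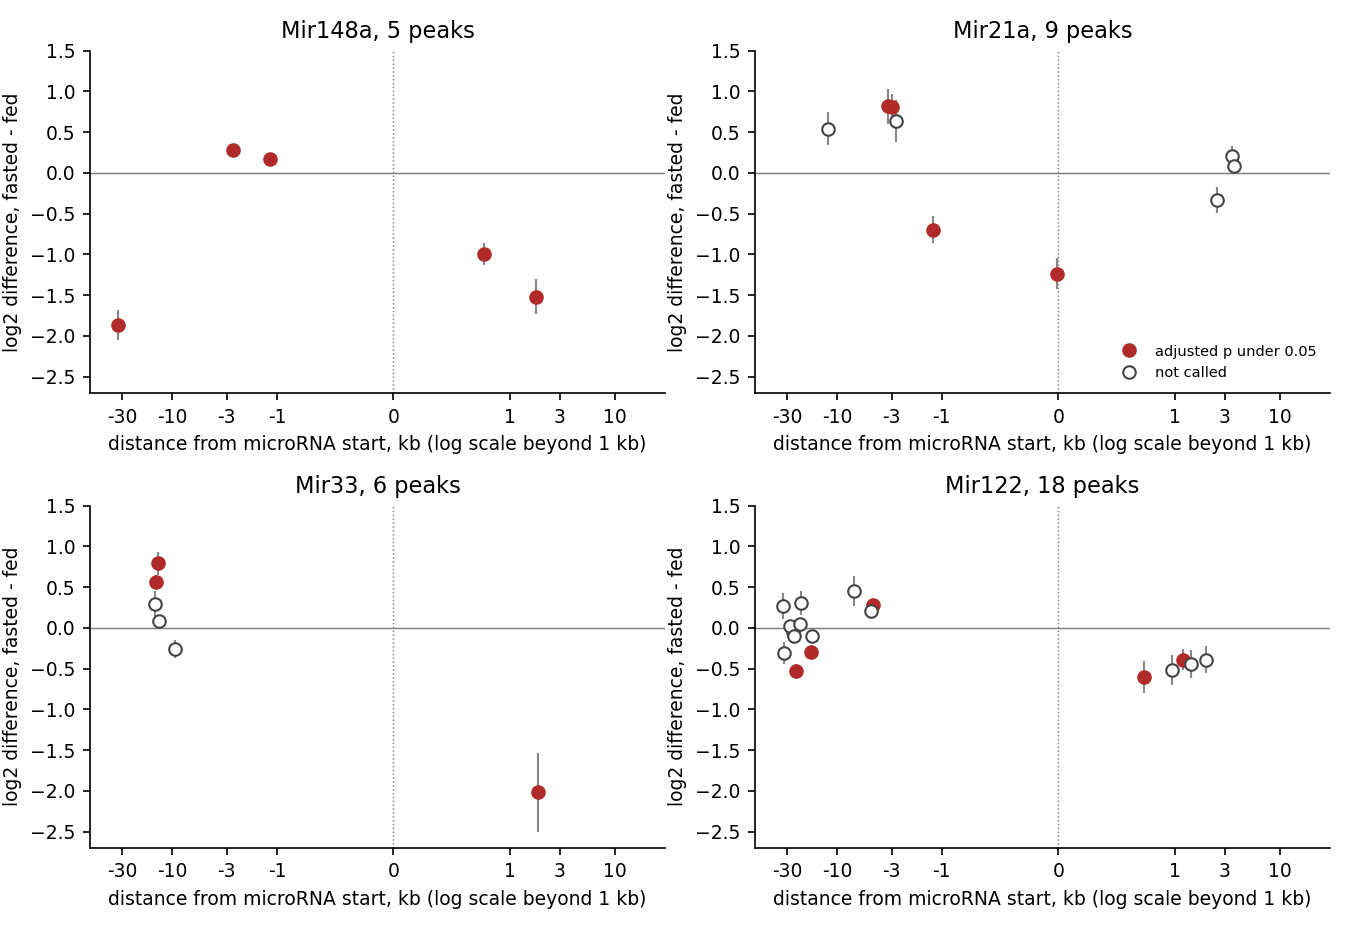
Log2 difference of fasted minus fed at each peak of Mir148a, Mir21a, Mir33 and Mir122 (y axis, with the standard error as bars) against the distance from the microRNA start in kb (x axis, log scale beyond 1 kb, upstream negative). Filled points had an adjusted p under 0.05. Each panel holds called peaks above and below 0.

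Mir148a, an abundant liver microRNA that targets the LDL receptor, had 5 peaks and all were called. The farthest, 32.5 kb upstream at chr6:51302351-51302551, had 13.4 to 43.6 normalized reads (median 23.9) in fasted and 63.1 to 138 (median 97.2) in fed libraries. The libraries did not overlap, and the log2 difference was -1.87 ± 0.18 (adjusted p = 2.12e-04). Downstream of the start the peak at 0.78 kb had 51.9 to 123 normalized reads (median 83.7) in fasted and 139 to 206 (median 164) in fed libraries, a log2 difference of -0.99 ± 0.14 (adjusted p = 8.39e-04). The peak at 1.78 kb had a log2 difference of -1.52 ± 0.21 (adjusted p = 8.50e-04), again without overlap. The upstream peaks at 1.15 and 2.64 kb were higher by 0.17 and 0.28 on the log2 scale, but neither was called after scaling to peaks near gene starts (log2 difference 0.04 and 0.16). They also lost their calls in single-mouse omissions: the first without fed A, fed B, fed C, fasted A or fasted B (adjusted p = 0.0678 to 0.159), and the second without fed A or fasted C (adjusted p = 0.051 to 0.0688). Mir152, which shares the seed, had 3 peaks and no called one. Its peak of lowest p had 61.0 to 85.9 normalized reads (median 74.8) in fasted and 65.3 to 114 (median 86.4) in fed libraries (adjusted p = 0.16).

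Mir21a had 9 peaks, with 2 higher and 2 lower. Beside the hairpin peak described above, the peak 1.22 kb upstream in an exon of Vmp1 was lower, with 35.6 to 57.7 normalized reads (median 40.7) in fasted and 60.5 to 78.6 (median 70.8) in fed libraries (log2 difference -0.70 ± 0.16, adjusted p = 0.00984). Without fed replicate A this peak lost its call (adjusted p = 0.0509). Farther upstream, introns of Vmp1 held a peak at 3.001 kb with 79.5 to 294 normalized reads (median 142) in fasted and 61.1 to 116 (median 83.8) in fed libraries (log2 difference 0.82 ± 0.16, adjusted p = 0.00385). The next one, at 3.27 kb, was also higher (log2 difference 0.82 ± 0.22, adjusted p = 0.0166), and its call was lost without fed A or fasted A (adjusted p = 0.057 to 0.0655). Of the called peaks, the 2 at and near the hairpin were therefore lower and the 2 intronic ones farther upstream higher, in the same mice. The remaining peaks of Mir21a were not called.

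Mir34a, a target of p53 that represses the deacetylase Sirt1, had a peak 2.45 kb upstream at chr4:150065901-150066101 with 11.1 to 84.7 normalized reads (median 59.0) in fasted and 105 to 169 (median 149) in fed libraries. There was no overlap, but the fasted libraries varied widely. The log2 difference was -1.57 ± 0.39 (adjusted p = 0.0135), and the call was lost without fed B (adjusted p = 0.0583). Its other peak, 7.39 kb upstream, was not called (log2 difference 0.43 ± 0.20, adjusted p = 0.12). Mir802, which is raised in the livers of obese mice, went the other way. Its peak 1.58 kb upstream at chr16:93368043-93368243 had 91.9 to 132 normalized reads (median 108) in fasted and 38.5 to 85.8 (median 46.8) in fed libraries. No libraries overlapped, and the log2 difference was 1.01 ± 0.17 (adjusted p = 0.00215). Its peak at the transcript end, 0.23 kb from the start, was not called (log2 difference 0.22 ± 0.09, adjusted p = 0.0966).

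**Figure D3:**
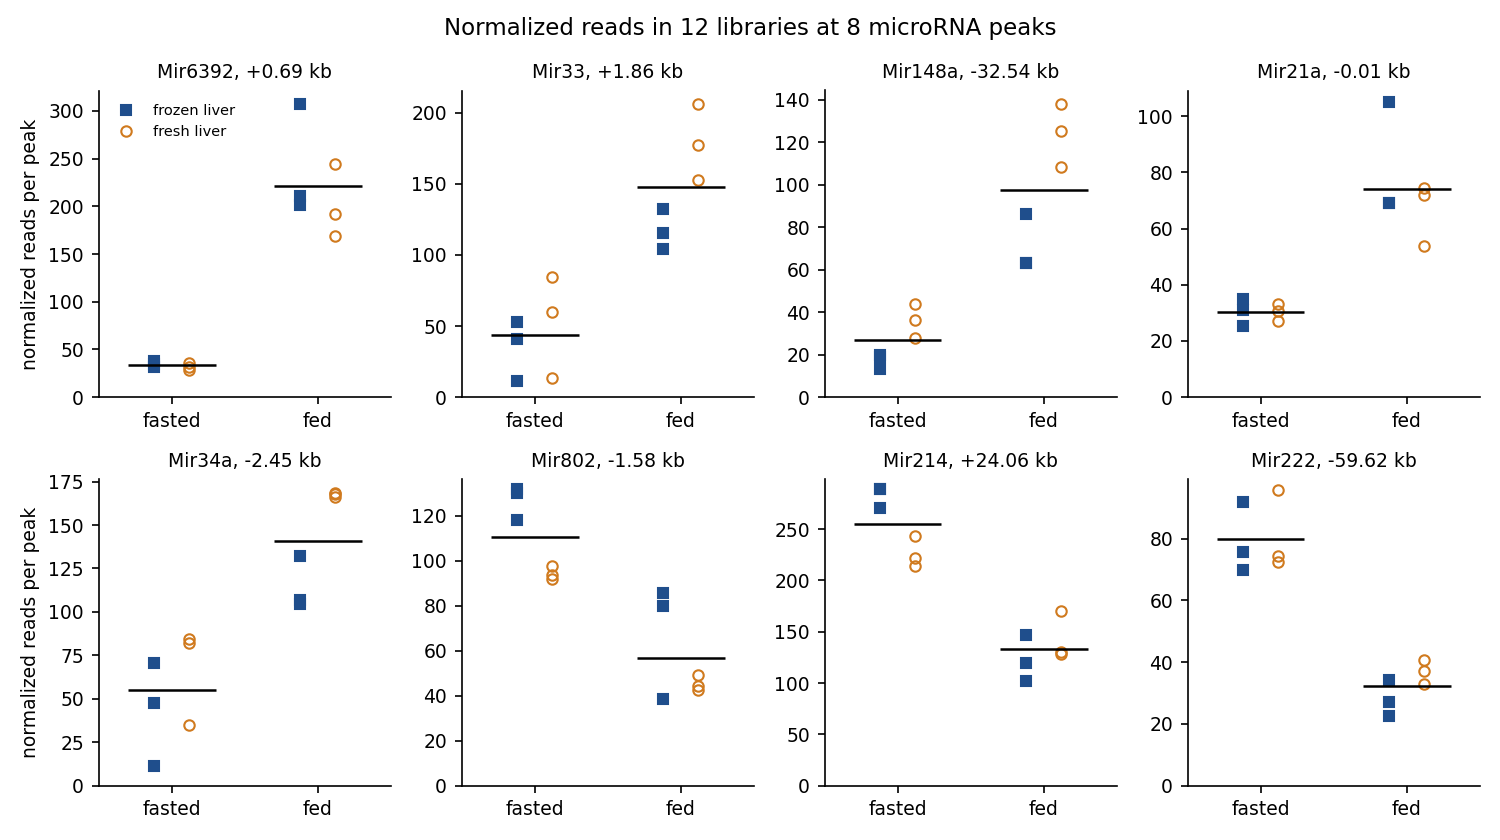
Normalized reads per peak (y axis) in fasted and fed libraries at 8 microRNA peaks, named by gene and distance from the microRNA start. Filled squares are frozen and open circles fresh liver, and the line is the mean over 3 mice. In all 8 panels the 6 fasted and the 6 fed libraries do not overlap: the first 5 peaks are lower and the last 3 are higher in fasted liver.

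Mir122, the microRNA that dominates hepatocytes, had 18 peaks with a median level of 205 normalized reads, of which 1 was higher and 4 were lower. The peak 0.74 kb past the start at chr18:65249498-65249698 had 114 to 169.9 normalized reads (median 121) in fasted and 137 to 305 (median 195) in fed libraries. These overlapped, the log2 difference was -0.61 ± 0.20 (adjusted p = 0.0379), and the call was lost without fed A, fed B, fasted A or fasted C (adjusted p = 0.0579 to 0.127). The peak with the lowest p lay 24.5 kb upstream and had 138 to 187 normalized reads (median 159) in fasted and 217 to 243 (median 230.2) in fed libraries, without overlap. Its log2 difference was -0.53 ± 0.09 (adjusted p = 0.00172). The 5 peaks from 0.74 to 1.998 kb past the start all had negative log2 differences, between -0.61 and -0.39, and 2 of them were called. The sole higher peak, 4.55 kb upstream, lost its call after scaling to peaks near gene starts (log2 difference 0.16) and without fed B or fasted C (adjusted p = 0.0512 to 0.0769).

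Members of the miR-103/107 family lie in introns of the pantothenate kinase genes, which make coenzyme A, and affect insulin sensitivity in mouse liver. Mir107, in Pank1, had a peak 7.84 kb downstream with 67.8 to 100.3 normalized reads (median 79.6) in fasted and 29.8 to 63.0 (median 42.6) in fed libraries. The libraries did not overlap and the log2 difference was 0.91 ± 0.15 (adjusted p = 0.00209). A peak 16.0 kb downstream, beyond Pank1, was lower (log2 difference -0.94 ± 0.26, adjusted p = 0.0212), and lost its call without fed A, fed B or fasted A (adjusted p = 0.0636 to 0.0923). Mir103-2 had 3 peaks in Rnf24, next to its host Pank2, and the one with the lowest p had 208 to 283 normalized reads (median 249) in fasted and 172 to 194 (median 187) in fed libraries (log2 difference 0.40 ± 0.08, adjusted p = 0.00523). Mir103-1, in Pank3, had 1 peak, with 121 to 139 normalized reads (median 133) in fasted and 116 to 148 (median 128) in fed libraries, which was not called (adjusted p = 0.827). The promoter of Pank2 was higher, with 155 to 192 normalized reads (median 173) in fasted and 92.9 to 154 (median 124) in fed libraries (log2 difference 0.48 ± 0.11, adjusted p = 0.00746), while those of Pank1 (log2 difference 0.09 ± 0.08, adjusted p = 0.39) and Pank3 (log2 difference 0.01 ± 0.05, adjusted p = 0.947) were not called.

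Mir378a, in the coactivator gene Ppargc1b, had 10 peaks with 1 higher and 2 lower. The peak of lowest p, 67.5 kb from the start, had 71.2 to 144 normalized reads (median 113) in fasted and 139 to 214 (median 178) in fed libraries (log2 difference -0.72 ± 0.12, adjusted p = 0.00202). The peak nearest the start, at 0.71 kb, had 96.4 to 143 normalized reads (median 109) in fasted and 77.0 to 139 (median 108) in fed libraries and was not called (adjusted p = 0.592). Mir378b, 40.1 kb from a peak in Msi2, had 15.6 to 55.6 normalized reads (median 26.6) in fasted and 38.5 to 122 (median 78.8) in fed libraries (log2 difference -1.32 ± 0.16, adjusted p = 5.07e-04). Here fasted and fed libraries overlapped, and frozen libraries were lower than fresh ones (log2 difference -1.32 ± 0.15).

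Mir101a and Mir101b, whose microRNAs repress the histone methyltransferase Ezh2, both had lower peaks. At Mir101a 2 of 3 peaks were lower, and the one 6.54 kb from the start had 15.6 to 36.4 normalized reads (median 21.6) in fasted and 36.6 to 91.3 (median 63.6) in fed libraries, without overlap (log2 difference -1.43 ± 0.21, adjusted p = 0.00116). The other lower peak (log2 difference -0.46 ± 0.15) lost its call without fed A, fed B, fed C, fasted A or fasted B (adjusted p = 0.0513 to 0.146). At Mir101b, in Rcl1, 1 of 7 peaks was called, as lower (log2 difference -0.68 ± 0.21, adjusted p = 0.029), and its call was lost without fed A, fed B or fasted A (adjusted p = 0.0841 to 0.12). In the miR-26 family, hosted by the Ctdsp phosphatase genes, Mir26b had 6 peaks, 1 of them higher and 2 lower. Its peak of lowest p, at 6.49 kb, was lower. It had 48.2 to 92.4 normalized reads (median 64.2) in fasted and 104 to 144 (median 119) in fed libraries, without overlap (log2 difference -0.85 ± 0.15, adjusted p = 0.00251). Mir26a-1 was lower too (log2 difference -0.53 ± 0.16, adjusted p = 0.0288) but not when single mice were left out (without fed A, fed C or fasted A, adjusted p = 0.0853 to 0.104), and Mir26a-2 was not called (log2 difference 0.24 ± 0.10, adjusted p = 0.09).

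Of the miR-29 genes, whose microRNAs repress collagens, Mir29b-1 had 13 peaks, 2 of them higher and 1 lower. Its log2 differences ran from -0.98 to 0.50. A higher peak 27.9 kb upstream had 211 to 357 normalized reads (median 271) in fasted and 154 to 268 (median 216) in fed libraries (log2 difference 0.38 ± 0.07, adjusted p = 0.0031). The peak of Mir29c at 0.63 kb was not called (log2 difference -0.63 ± 0.28, adjusted p = 0.0994). In the miR-30 family Mir30a had a higher peak 84.7 kb upstream (log2 difference 0.65 ± 0.16, adjusted p = 0.0111), while the peak of lowest p at Mir30c-2 was not called (log2 difference -0.19 ± 0.20, adjusted p = 0.468). The peak of lowest p at Mir30d had 311 to 541 normalized reads (median 435) in fasted and 263 to 492 (median 370.2) in fed libraries. Its small difference (log2 difference 0.19 ± 0.06, adjusted p = 0.0245) was lost after scaling to peaks near gene starts (log2 difference 0.07) and without fed A, fed C or fasted A (adjusted p = 0.0744 to 0.099).

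The liver and gut microRNAs miR-192 and miR-194 are made from shared transcripts. Mir192 had a higher peak at 4.001 kb (log2 difference 0.44 ± 0.13, adjusted p = 0.024), which lost its call after scaling to peaks near gene starts (log2 difference 0.31) and without fed B, fed C or fasted A (adjusted p = 0.0551 to 0.103). Its cluster partner Mir194-2 had 72.3 to 98.7 normalized reads (median 77.4) in fasted and 80.8 to 116 (median 105) in fed libraries at a peak annotated as promoter. That peak was not called (adjusted p = 0.0994). Mir194-1 had a sparse lower peak at the end of Iars2 (log2 difference -1.66 ± 0.42, adjusted p = 0.0138) that lost its call without fed A or fed B (adjusted p = 0.0559 to 0.0619). The peak of Mir22, 0.69 kb from its hairpin start, had 199 to 323 normalized reads (median 259) in fasted and 174 to 336 (median 257) in fed libraries. It was not called (log2 difference 0.05 ± 0.07, adjusted p = 0.621). Over the whole hepatocyte and lipid list, 29 of 42 genes had peaks, and of their 126 peaks 19 were higher and 24 lower, a median log2 difference of 0.06. These counts were near the shares over all peaks, 16.5% and 18.1%. After scaling to peaks near gene starts these came to 10 higher and 32 lower (median -0.07).

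MicroRNAs known best from other cell types had few peaks: 11 of 39 listed genes, with 18 peaks, of which 3 were higher and 9 lower (median log2 difference -0.38), against 16.5% and 18.1% over all peaks. Mir1a-2, a muscle microRNA, had a peak 101 kb upstream with 79.5 to 98.5 normalized reads (median 84.0) in fasted and 169 to 252 (median 212) in fed libraries. No libraries overlapped, and the log2 difference was -1.28 ± 0.09 (adjusted p = 5.61e-05). Mir10b, in the Hoxd cluster, had a peak at 0.67 kb with 37.8 to 73.8 normalized reads (median 56.5) in fasted and 107 to 140.2 (median 119) in fed libraries, also without overlap (log2 difference -1.10 ± 0.17, adjusted p = 0.00133). Mir214, a mesenchymal microRNA made from a transcript opposite to Dnm3, was higher, with 214 to 289 normalized reads (median 257) in fasted and 102 to 170.2 (median 129) in fed libraries (log2 difference 0.94 ± 0.11, adjusted p = 4.31e-04). Here the 6 fasted libraries stood above the 6 fed ones.

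The epithelial Mir200c was higher 1.41 kb upstream (log2 difference 0.37 ± 0.08, adjusted p = 0.00523), as was Mir181b-2, a lymphocyte microRNA, at 21.0 kb in Nr6a1 (log2 difference 1.04 ± 0.19, adjusted p = 0.00293). Lower peaks with calls that depended on single mice were those of Mir146, induced in inflammation (log2 difference -0.41 ± 0.12, lost without fed B, fed C, fasted A or fasted C, adjusted p = 0.0659 to 0.0981), and the neuronal Mir124a-3 (log2 difference -0.59 ± 0.18, lost without fed A, fed B, fed C or fasted A, adjusted p = 0.0553 to 0.0957). The endothelial Mir126b had its peak in Agpat2 and not in its host Egfl7 (log2 difference -0.50 ± 0.13), and that call was lost without fed B or fasted A (adjusted p = 0.0523 to 0.0552). The erythroid Mir144 had 126 to 158 normalized reads (median 133) in fasted and 118 to 145 (median 133) in fed libraries and was not called (adjusted p = 0.557). In the imprinted Dlk1-Dio3 cluster 2 of 44 genes had a peak each, and 1 was lower.

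MicroRNAs tied to growth and the cell cycle had peaks for 7 of 26 genes, with 7 of 19 peaks higher and 1 lower and a median log2 difference of 0.29, against the same 16.5% and 18.1% over all peaks. Mir222, which represses a cell cycle inhibitor, had a peak 59.6 kb upstream with 69.7 to 95.7 normalized reads (median 75.0) in fasted and 22.6 to 40.7 (median 33.5) in fed libraries. No libraries overlapped, and the log2 difference was 1.29 ± 0.18 (adjusted p = 8.76e-04). Its cluster partner Mir221, with the same seed, had a distant peak with 71.5 to 106 normalized reads (median 88.9) in fasted and 17.5 to 70.3 (median 46.0) in fed libraries (log2 difference 1.03 ± 0.17, adjusted p = 0.00202). Mir15a, a repressor of Bcl2 and cyclins, had 2 overlapping peaks 16.7 and 16.8 kb upstream, with log2 differences of 0.73 ± 0.11 and 0.77 ± 0.12 (adjusted p = 0.00138 and 0.00173). These windows share reads. Mir212, a CREB-responsive microRNA, had a peak 0.22 kb upstream of its hairpin start. It had 83.1 to 136 normalized reads (median 98.4) in fasted and 55.8 to 75.6 (median 65.7) in fed libraries, without overlap (log2 difference 0.62 ± 0.13, adjusted p = 0.00637). The lower peak of the list was that of Mir34a given above. With scaling to peaks near gene starts the list had 6 higher and 3 lower peaks, and with quantile normalization 11 and 1. The peaks named here from this list, other than that of Mir212, were chosen after their values were seen.

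Among well-covered peaks without overlap the largest fall was at Mir6392. This microRNA lies at the end of Pnpla3, a lipid droplet protein gene, and its peak at chr15:84168865-84169065, 0.69 kb past the start, had 28.3 to 37.8 normalized reads (median 33.4) in fasted and 169 to 307 (median 206) in fed libraries. The 6 fasted values lay close together, far under the lowest fed one. The log2 difference was -2.67 ± 0.15 (adjusted p = 2.82e-05), and the hairpin peak beside it fell too (log2 difference -1.04 ± 0.09, adjusted p = 1.54e-04). Next came Mir705 in Rab11fip5, with 22.3 to 109 normalized reads (median 60.0) in fasted and 197 to 307 (median 257) in fed libraries (log2 difference -2.03 ± 0.26, adjusted p = 5.88e-04). Mir5103, at a site in Dst (log2 difference -1.60 ± 0.29) and Mir1190 in Ccdc88c (log2 difference -1.60 ± 0.20) fell by a like amount. The remaining ones of the 8 were Mir1a-2, given above, Mir3074-1 (log2 difference -1.25), Mir365-2 (log2 difference -1.25) and Mir5100 (log2 difference -1.22). The call at Mir5100 was lost without fed A or fed C (adjusted p = 0.0556 to 0.0562).

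On the side of higher peaks Mir3089 led, with 103 to 298 normalized reads (median 156) in fasted and 47.9 to 86.0 (median 63.8) in fed libraries at a site 8.96 kb upstream (log2 difference 1.40 ± 0.18, adjusted p = 6.58e-04). Mir582, in the phosphodiesterase gene Pde4d, followed with 158 to 238 normalized reads (median 203) in fasted and 74.3 to 108 (median 95.7) in fed libraries, 265 kb past the microRNA start in an intron of the host (log2 difference 1.08 ± 0.10, adjusted p = 1.80e-04). Neither overlapped. The others were Mir7240 in Mast3 (log2 difference 1.02), Mir6538 in Rnf144a (log2 difference 1.01), Mir214, Mir466f-3 at a site in Zc3h13 (log2 difference 0.87), Mir6951 (log2 difference 0.81) and Mir3099 in Usp29 (log2 difference 0.75). A sparse peak of Mir1948, chosen with the next ones after their values were seen, had the largest rise, with a log2 difference of 2.0 ± 0.41 (adjusted p = 0.00556). It had 37.5 to 118 normalized reads (median 102) in fasted and 11.2 to 39.0 (median 20.3) in fed libraries, which overlapped. The peak of Mir99b 3.27 kb upstream had 87.3 to 258 normalized reads (median 160.4) in fasted and 40.5 to 67.5 (median 45.8) in fed libraries (log2 difference 1.63 ± 0.26, adjusted p = 0.00169). The peak of Mir709 in Rfx1, which is sparse, had 1.13 to 11.9 normalized reads (median 5.56) in fasted and 22.8 to 71.0 (median 58.2) in fed libraries (log2 difference -3.06 ± 0.43, adjusted p = 8.86e-04), the largest fall of any microRNA peak.

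Among the genes with the most peaks, Mir582, Mir7661 and Mir365-2 each had called peaks of both signs, in places far apart. Other genes with 10 or more peaks were called in a single direction, such as Mir680-3 (7 higher and 0 lower of 11) and Mir1903 (0 higher and 2 lower of 10). The background shares were 16.5% higher and 18.1% lower over all peaks, and the counts per gene were given no test. Mir582 had 7 higher and 3 lower of 18 peaks, all in introns of Pde4d: 2 lower peaks lay 282 and 283 kb before the start (log2 difference -1.78 and -1.17), and 6 of the 7 higher ones lay 257 to 285 kb past it. Mir7661, in Itpr1, had 6 higher and 2 lower of 20. Its largest rises were at neighbouring sites 32.8 and 32.5 kb upstream (log2 difference 1.36 ± 0.22 and 1.52 ± 0.31), and its largest fall at 53.9 kb (log2 difference -1.08 ± 0.24). Mir365-2 had 2 higher and 5 lower of 18 intergenic peaks, with the lower ones at 3.50 kb (log2 difference -1.35 ± 0.18) and 2.29 kb (log2 difference -1.01 ± 0.15) upstream nearest to the hairpin. The 5 most accessible microRNA peaks, at Mir5133, Mir6951, Mir1938, Mir7655 and Mir7240, averaged 526 to 640.2 normalized reads. At 4 of them fasting was not called, and the call at Mir6951 (log2 difference 0.19 ± 0.07) was lost after scaling to peaks near gene starts (log2 difference 0.07) and without fed A, fed B, fed C, fasted A or fasted C (adjusted p = 0.0843 to 0.148).

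The microRNA machinery was read at its promoters. Of 23 listed genes 21 had a peak within 1 kb of the start, of which 4 were higher in fasted liver and 0 lower on the authors' scaling, with a median log2 difference of 0.16. Among the other peaks within 1 kb of a start 19.7% were higher and 4.49% lower, so this count was near that background. The 4 were Argonaute genes Ago2 and Ago3, the export cofactor Ran and the silencing partner Tnrc6c. The promoter peak of Ago3 had 225 to 326 normalized reads (median 312) in fasted and 194 to 269 (median 235) in fed libraries (log2 difference 0.32 ± 0.08, adjusted p = 0.0111). Ago2 had 84.2 to 171 normalized reads (median 130.0) in fasted and 71.7 to 133 (median 81.8) in fed libraries (log2 difference 0.45 ± 0.14, adjusted p = 0.0345). The nuclear processor Drosha (log2 difference -0.12 ± 0.06, adjusted p = 0.152), its partner Dgcr8 (log2 difference 0.26 ± 0.12, adjusted p = 0.118), the exporter Xpo5 (log2 difference 0.15 ± 0.08, adjusted p = 0.185) and Dicer1 (log2 difference 0.26 ± 0.14, adjusted p = 0.172) were not called. After scaling to peaks near gene starts 0 of the 21 were higher and 1 was lower. Over all 60 peaks of these genes, at any distance, 9 were higher and 9 lower, against 16.5% and 18.1% over all peaks of the table. Among host genes 18 of 22 had a promoter peak, with 3 higher and 0 lower, also near those shares, and the 3 were Pank2, Mcm7 (log2 difference 0.21 ± 0.06, adjusted p = 0.0159) and 2010111I01Rik (log2 difference 0.27 ± 0.08, adjusted p = 0.0284). With scaling to peaks near gene starts this was 1 higher and 1 lower. Over all 96 peaks of the host genes, at any distance, 15 were higher and 16 lower, against the same 16.5% and 18.1%.

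The fasting difference was also tested within each preparation. In frozen liver 188 microRNA peaks were higher (14.6%, against 12.8% over all peaks) and 273 lower (21.2%, against 15.0%). In fresh liver 145 were higher (11.3%, against 11.4% over all peaks) and 301 lower (23.4%, against 16.1%). Both preparations called 114 higher peaks, which were 60.6% of those in frozen and 78.6% of those in fresh liver. Over all peaks the shared higher calls were 55.2% of those in frozen and 61.7% of those in fresh liver. Both called 230 lower peaks, 84.2% of those in frozen and 76.4% of those in fresh liver, against 81.0% and 75.1% over all peaks. In opposite directions 0 microRNA peaks were called. These counts depended on single mice. Without fasted replicate A there were 116 higher peaks in frozen and 75 in fresh liver. Without fed replicate B the frozen counts were 121 higher and 181 lower, 302 in place of 461. After scaling to peaks near gene starts the frozen counts were 110 higher and 356 lower and the fresh counts 80 higher and 395 lower. In the authors' deposited table a total of 490 microRNA peaks had an adjusted p under 0.05 in frozen liver (197 higher and 293 lower) and 379 in fresh liver (117 and 262), and the authors' shares over all peaks were 29.5% and 23.1%. Of these, 443 and 377 were also called here, in the same direction.

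No microRNA peak had a fasting difference that differed between preparations at an adjusted p under 0.05, from limma's interaction term over 12 libraries, and the share over all peaks was 0.0%. At an unadjusted p under 0.05 there were 73 (5.67%, against 5.14% over all peaks). With the replicate block, which sets the 2 libraries of a mouse against each other, 17 microRNA peaks passed (11 with a more positive fasting difference in frozen than in fresh liver and 6 with a more negative one). Over all 52530 peaks 187 passed with a more positive and 208 with a more negative one. A block computed on within-mouse differences, chosen after seeing the data, gave 0. It has the same estimates and differs only in limma's prior for the spread, so the 17 calls depend on that prior. The 3 lowest p-values were at Mir7090, with its peak in Ulk4, Mir3099 in Usp29 and Mir6368. At Mir7090 the log2 difference was -1.43 in frozen and -0.63 in fresh liver, and at Mir3099 1.14 and 0.36 (adjusted p = 0.281 and 0.281). At Mir6368 it was -0.88 in frozen and 0.11 in fresh liver (adjusted p = 0.653). Of the 525 peaks called on the mean of both preparations, 411 (78.3%) had the larger absolute difference in frozen liver, against 73.5% over all called peaks. This share is a description and was given no test.

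**Figure D4:**
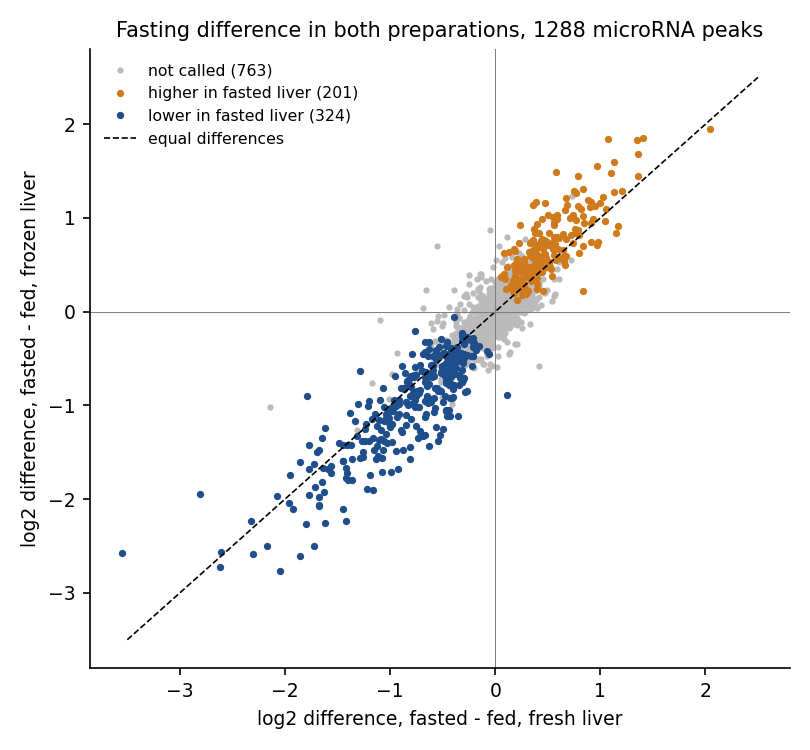
Log2 difference of fasted minus fed in frozen liver (y axis) against the same in fresh liver (x axis) for 1288 microRNA peaks, coloured by their call on the mean of both preparations. The 201 higher and 324 lower peaks lie along the line of equal differences, and 411 of these 525 have the larger absolute difference in frozen liver.

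The second comparison was frozen against fresh liver. Over 12 libraries, with feeding state as a covariate, frozen liver had 349 higher (27.1%) and 395 lower peaks (30.7%) relative to fresh liver, against 28.7% and 32.8% over all peaks. These shares were near the background. The median log2 difference was -0.05 for microRNA peaks and -0.05 over all peaks, and after scaling to peaks near gene starts the counts were 286 higher and 475 lower. All 6 frozen libraries were above all 6 fresh ones at 167 microRNA peaks (13.0%, against 15.2% over all peaks) and below at 121 (9.39%, against 11.7%). Of 83 microRNA peaks in the promoter class, which lie at hairpin starts, 42 were higher and 14 lower. Among the other peaks of that class, at starts of other genes, these were 5929 and 4050 of 14552. In introns 133 of 622 were higher and 225 lower, near the 4003 and 7610 of 19456 among the other peaks. By the estimate of depth from the steps, the frozen library of each of the 6 mice was shallower than the fresh one, and the part of depth was not tested.

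The largest rise with freezing among well-covered peaks was at Mir3108, with 174 to 272 normalized reads (median 222) in frozen and 47.8 to 75.7 (median 72.4) in fresh libraries (log2 difference 1.68 ± 0.10, adjusted p = 8.60e-10). Mir466d, at a site in Camk1d (log2 difference 1.63 ± 0.16), Mir680-3 (log2 difference 1.60 ± 0.09), Mir6387 (log2 difference 1.47 ± 0.07) and Mir3969 (log2 difference 1.44 ± 0.05) rose by like amounts. The largest fall was at Mir6353, with 42.3 to 109.9 normalized reads (median 64.2) in frozen and 139 to 225 (median 168) in fresh libraries (log2 difference -1.35 ± 0.13, adjusted p = 1.45e-07). Mir5131 (log2 difference -1.04 ± 0.11), Mir6239 (log2 difference -0.93 ± 0.16), Mir181a-2 (log2 difference -0.91 ± 0.09) and Mir7068 (log2 difference -0.90 ± 0.11) followed, and in each of the 10 the frozen and fresh libraries did not overlap. At any level the largest rise was at Mir101c, where 3 peaks that the authors' annotation places in satellite repeats, to which reads can align at many copies, were higher by 1.86 to 2.78 on the log2 scale. Their fasting differences lay between -0.08 and 0.07, with wide standard errors of 0.38 to 0.53, and none was called.

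**Figure D5:**
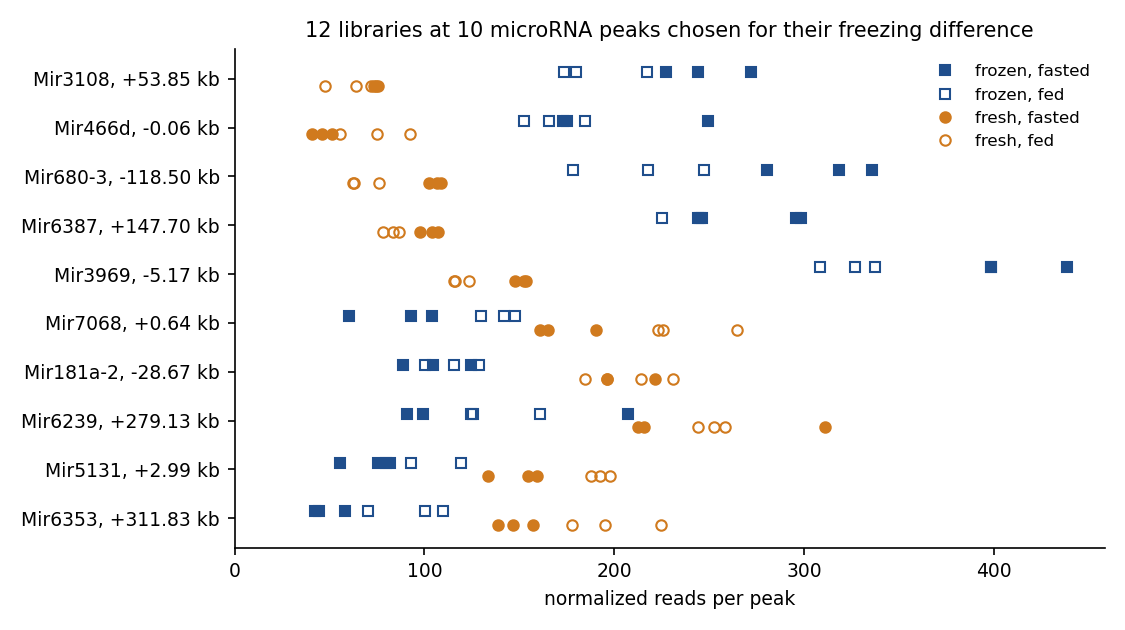
Normalized reads per peak (x axis) in frozen libraries (squares) and fresh libraries (circles) at 10 microRNA peaks named for their freezing difference, filled for fasted and open for fed mice. At the upper 5 peaks every frozen library lies above every fresh one, and at the lower 5 every frozen library lies below.

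Some sites were called for freezing and not for fasting, a contrast that was not itself tested. The Mir22 peak 0.69 kb from the hairpin start had 299 to 336 normalized reads (median 314) in frozen and 174 to 216 (median 203) in fresh libraries (log2 difference 0.65 ± 0.06, adjusted p = 1.02e-07). A separate peak at the start of the host transcript Mir22hg was also higher in frozen liver (log2 difference 0.48 ± 0.05). The Mir1955 hairpin peak in Phf21a, picked after its values were seen, had 15.8 to 31.4 normalized reads (median 19.1) in frozen and 62.2 to 86.7 (median 81.2) in fresh libraries (log2 difference -1.88 ± 0.17, adjusted p = 6.82e-08), while its fasting difference was 0.11 ± 0.20 (adjusted p = 0.673). At Mir122, 7 of 18 peaks were higher in frozen liver and 1 was lower, with log2 differences from -0.36 to 0.84. In the hepatocyte and lipid list 49 of 126 peaks were higher and 26 lower with freezing, against 28.7% and 32.8% over all peaks. After scaling to peaks near gene starts these were 39 higher and 33 lower. Promoter peaks of the microRNA machinery were higher at 13 and lower at 4 of 21 genes, against 6919 and 5114 of the other 18399 peaks within 1 kb of a start. Scaling to peaks near gene starts left 9 higher and 4 lower, and quantile normalization 9 and 5, with a median log2 difference of 0.07 in place of 0.23. The called promoters on the authors' scaling included Ddx5 (1.06 ± 0.10) and Xpo5 (0.81 ± 0.08) on the higher side and Drosha (-0.50 ± 0.05) on the lower.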

How the data were processed

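ATAC-seq reads were aligned to mm10, and BWA 0.7.5a-r405, SAMtools, HOMER and DESeq2 are listed, per the submitters' processing notes. The deposited table gives, per the file headers, a normalized signal per 200-base peak window in 12 libraries, the nearest gene and its distance, a peak score, and for each preparation the authors' log2 fold change, p-value and adjusted p. Every deposited signal value was a whole multiple of its library's step (100% within 1e-04), but raw counts were not recovered and no count model was run. The design had assumed counts might be had.

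The log2(value + 1) values went into two-sided limma tests (limma 3.58.1, R 4.3.3) with a prior that follows the mean level, over all 52530 peaks with Benjamini-Hochberg adjustment. A log2 difference on this scale understates changes of low peaks. For fasting the units were averages of the frozen and fresh library of each letter, and tests were also run within each preparation. Freezing and the interaction were fitted over 12 libraries without a term for the mouse. In these 2 fits both libraries of a mouse counted as separate units, and only the replicate block took the pairing into account. Within each group the replicates are separate mice. The column letters match no mouse number of the labels. They were taken to pair the 2 preparations of a mouse because same-letter libraries deviated together (r 0.329 to 0.640, against at most 0.0213 for other letters), so the pairing comes from the data. Depths and counting errors take 1 step as 1 read, an estimate that could not be checked, and cover counting only. The tests were also run on simulated counts with known changes. Those libraries were drawn independently, with 1 step as 1 read and no mouse effect. That run therefore cannot speak to calls that depend on single mice.

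Named peaks were the 8 higher and 8 lower with the largest difference among called, non-overlapping peaks above the median level of all peaks, 5 and 5 likewise for freezing, hairpin peaks and those nearest the start within 1 kb for listed genes, the lowest-p peak of hepatocyte and other-cell-type genes, all peaks of the genes with the most, and the 5 highest levels. Other named peaks were chosen after their values were seen. The set and its lists were chosen with earlier results of these data known. The deposited score was not used.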

Additional observations from a re-analysis of the deposited data

How the results depend on the processing

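The counts of called microRNA peaks kept their direction of imbalance under every alternative run except freezing. Leaving out the lowest 25% of peaks left 914 microRNA peaks to test and 329 calls for fasting (154 higher and 175 lower), 303 in frozen liver (148 and 155) and 256 in fresh liver (96 and 160), fewer because fewer peaks were tested. Under that filter freezing had 323 higher and 213 lower peaks, and with quantile normalization 359 and 322, so its balance turned. Without 1 mouse at a time the calls were 376 to 529 for fasting, 302 to 456 in frozen liver, 310 to 451 in fresh liver, 677 to 769 for freezing and 0 to 0 for the interaction. Quantile normalization gave 536, 438, 495 and 681, and a pseudocount of 5 gave 533, 466, 450 and 748, for fasting, frozen, fresh and freezing. With the replicate block there were 581 calls for fasting, 882 for freezing and 17 for the interaction, which had 0 without it. Over all peaks the block gave 187 more positive and 208 more negative interaction calls. The within-mouse version of the block gave 0. Both versions estimate the same difference from the same pairs and differ only in limma's prior for the spread. That prior follows the mean level in the block and the mean within-mouse difference in the other version. Of 113 called peaks covered by the naming rule or described here, 68 kept their call in every alternative that tested them, 45 lost it in at least 1 and 0 reversed. Scaling to peaks near gene starts ended 22 of these calls. The planned count model was not run, since raw counts were not recovered. Depth limits sparse peaks most: if 1 step of a library is 1 read, which could not be checked, the median microRNA peak had 43 reads in the shallowest library.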
